A study of Arabidopsis thaliana with 12 samples.

Results

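Expression of 9 genes that make salicylic acid or control its synthesis was followed in Arabidopsis thaliana seedlings treated with isoxaben, with the elicitor peptide PEP3, or with both. The 9 genes were chosen by name from 32833 genes measured, with earlier results of these data known. They were ICS1, EDS5 and PBS3 of the synthesis route and the transcription factors CBP60g and SARD1. The others were the immune regulators EDS1, PAD4 and SAG101, and FMO1 of the N-hydroxypipecolic acid route. All plants were of the Col-0 genotype, 10 days old, grown in liquid medium with sucrose and sampled as whole seedlings 6 h after treatment. One group received DMSO alone as a mock, one isoxaben at 600 nM, one PEP3 at 10 nM and one the same doses of both; each had 3 libraries, and all groups held the same amount of DMSO. The labels name the replicates as biological but do not say how many seedlings or wells went into each, so p-values measure the spread between these libraries. Isoxaben is a herbicide that blocks cellulose synthesis and so disturbs the cell wall, and PEP3 is a peptide of the PEP family, which plants release from precursor proteins on damage and which the receptor kinases PEPR1 and PEPR2 perceive.

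Most salicylic acid made in Arabidopsis on infection comes from chorismate in the chloroplast. ICS1 converts chorismate to isochorismate, EDS5 carries isochorismate across the chloroplast envelope, and PBS3 joins it to glutamate in the cytosol, after which the conjugate breaks down to salicylic acid. CBP60g, which binds calmodulin, and its relative SARD1 bind the ICS1 promoter and activate it. EDS1 forms separate complexes with PAD4 and with SAG101, which act with helper receptors of the ADR1 and NRG1 families and feed forward on salicylic acid. FMO1 hydroxylates pipecolic acid to N-hydroxypipecolic acid, the signal of systemic acquired resistance that works beside salicylic acid.

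Upstream sequence is shown for 4 genes, ICS1, EDS5, SARD1 and FMO1, as examples of the motifs searched, chosen after the matches were seen. Genomic sequence and gene starts are from RefSeq TAIR10.1, whose start and end are those of the deposited table for all 9 genes. Each line is written 5′ to 3′ on the strand of its gene, in lower case, with motif matches on either strand in capitals. Capitals in the ICS1 line mark TTGACT and TTGACC, forms of the W-box bound by WRKY factors, and GAAATTT, part of the element that CBP60g and SARD1 are known to bind. That stretch lies at chr1:28068976-28069275 on the plus strand, 1319 to 1020 bases before the annotated start. The other lines are the 250 bases before the start. EDS5 (chr4:18185187-18185436, plus strand) has W-boxes in capitals. SARD1 (chr1:27749249-27749498, minus strand) has TGACG, the core bound by TGA factors, where the palindrome TGACGTCA holds an overlapping match on each strand. FMO1 (chr1:6653196-6653445, minus strand) has GAAATTT or its reverse complement, of which 2 overlap, and the G-box CACGTG.
ICS1: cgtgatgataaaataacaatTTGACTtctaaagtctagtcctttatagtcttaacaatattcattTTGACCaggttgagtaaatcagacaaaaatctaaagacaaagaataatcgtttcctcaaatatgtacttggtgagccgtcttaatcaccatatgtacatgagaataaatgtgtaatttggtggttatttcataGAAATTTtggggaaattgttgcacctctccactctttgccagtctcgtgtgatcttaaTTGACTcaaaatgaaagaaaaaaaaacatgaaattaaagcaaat
EDS5: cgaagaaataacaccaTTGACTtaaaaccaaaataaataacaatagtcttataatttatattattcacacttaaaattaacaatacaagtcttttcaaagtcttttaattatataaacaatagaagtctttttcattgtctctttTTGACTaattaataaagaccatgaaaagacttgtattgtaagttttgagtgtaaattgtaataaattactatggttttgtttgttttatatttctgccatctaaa
SARD1: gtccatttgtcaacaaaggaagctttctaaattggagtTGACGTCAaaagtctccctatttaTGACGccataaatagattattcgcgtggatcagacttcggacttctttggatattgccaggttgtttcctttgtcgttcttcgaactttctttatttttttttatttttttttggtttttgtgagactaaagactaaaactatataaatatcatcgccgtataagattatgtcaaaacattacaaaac
FMO1: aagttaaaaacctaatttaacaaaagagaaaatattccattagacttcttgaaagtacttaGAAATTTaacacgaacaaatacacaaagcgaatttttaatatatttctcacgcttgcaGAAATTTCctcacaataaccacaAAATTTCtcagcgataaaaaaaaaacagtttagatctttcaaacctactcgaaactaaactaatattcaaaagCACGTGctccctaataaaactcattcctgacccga

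In the 1500 bases before the start, GAAATTT was found in 5 of the 9 genes (ICS1, PBS3, EDS5, EDS1 and FMO1), against 49.1% of 27416 protein-coding genes. A W-box (TTGACC or TTGACT) was found in 8 of 9, all but PAD4, against 80.7% of all promoters. TGACG was found in 6 of 9 against 68.9%, and CACGTG in SAG101 and FMO1 against 19.5%. At this distance none of the motifs was much more common before these genes than before any gene. In the nearest 250 bases GAAATTT was present before ICS1 and FMO1 (12.5% of all promoters), a W-box before EDS5 and EDS1 (28.4%), TGACG before SARD1 (18.6%) and CACGTG before FMO1 (6.48%). A match is a string of letters and not a measured site.

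**Figure D1:**
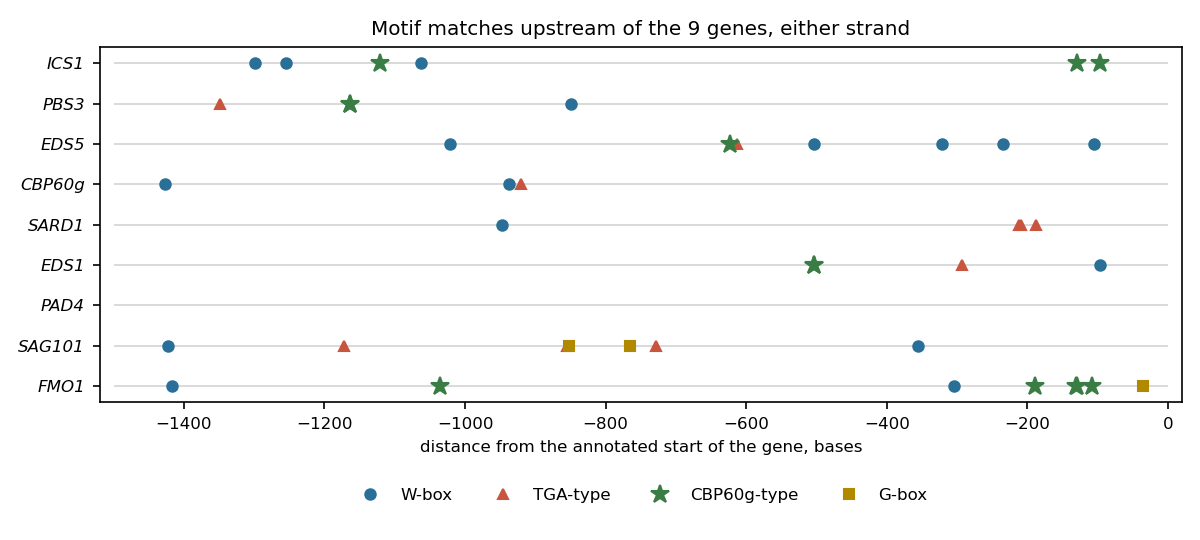
Position of motif matches in the 1500 bases before the annotated start of each of the 9 genes (horizontal axis, bases from the start, either strand). Circles are W-boxes, triangles TGACG, squares CACGTG and stars GAAATTT; the EDS5 row has 5 circles, the FMO1 row 5 stars of which 2 coincide, and the PAD4 row no match.

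Levels are given as the deposited FPKM, that is, per kilobase of gene and scaled for depth, and the libraries held 16995775 to 22793764 fragments on genes. The test was limma on log2(FPKM + 1) over those 20248 genes that averaged 0.5 FPKM or more, and a gene was called at a Benjamini-Hochberg adjusted p under 0.05. All 9 genes passed this filter. On this scale the change of a gene near 1 FPKM or below is understated. The libraries hold RNA of whole seedlings, in which more cells expressing a gene and more RNA per cell cannot be told apart. Shoot markers (5 genes for photosynthesis proteins) summed to 24853 to 26305 FPKM after DMSO, 20243 to 21938 after isoxaben, 21289 to 24597 after PEP3 and 21335 to 22328 after both, and root markers (5 genes) to 2283 to 2346, 2027 to 2588, 1725 to 1796 and 1380 to 1652 FPKM. The root sum was almost all PYK10 (group means of 2196, 2131, 1632 and 1367 FPKM), the only 1 of the 5 root markers called lower after PEP3 or after both against DMSO; after both the other 4 stood at 1.04 to 1.26 times DMSO, values that did not pass the test. Of the 5 shoot markers, 4 were called lower after isoxaben, 3 after PEP3 and 3 after both against DMSO. Of all genes, 32.5%, 14.3% and 31.4% were called in either direction. RBCS-1A, the largest (mean of 16306 FPKM after DMSO), was called in none of these comparisons. After isoxaben it stood at 0.883 times DMSO, and LHCA1, CAB1, PSBO1 and RBCS3B at 0.647, 0.673, 0.758 and 0.774 times. Every marker was above 0 in all 12 libraries, and the part of tissue proportions in the results below was not tested.

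Isoxaben raised all 9 genes, by 1.67 times for EDS1 up to 24.5 times for PBS3 in mean FPKM. PEP3 raised 3 of them, CBP60g, PBS3 and SARD1, and the treatment with both raised all 9. In 8 of the 9 the mean after both treatments was below that after isoxaben, but the difference was called only for PBS3, EDS5 and SAG101. The share of all genes with a lower mean was not counted. The background was wide, since 32.5% of the 20248 genes were called for isoxaben against DMSO (17.3% higher), 14.3% for PEP3 (7.84% higher) and 31.4% for both (16.9% higher). Among all genes tested, 7.41% differed between both treatments and isoxaben alone, 4.09% being lower after both.

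**Figure D2:**
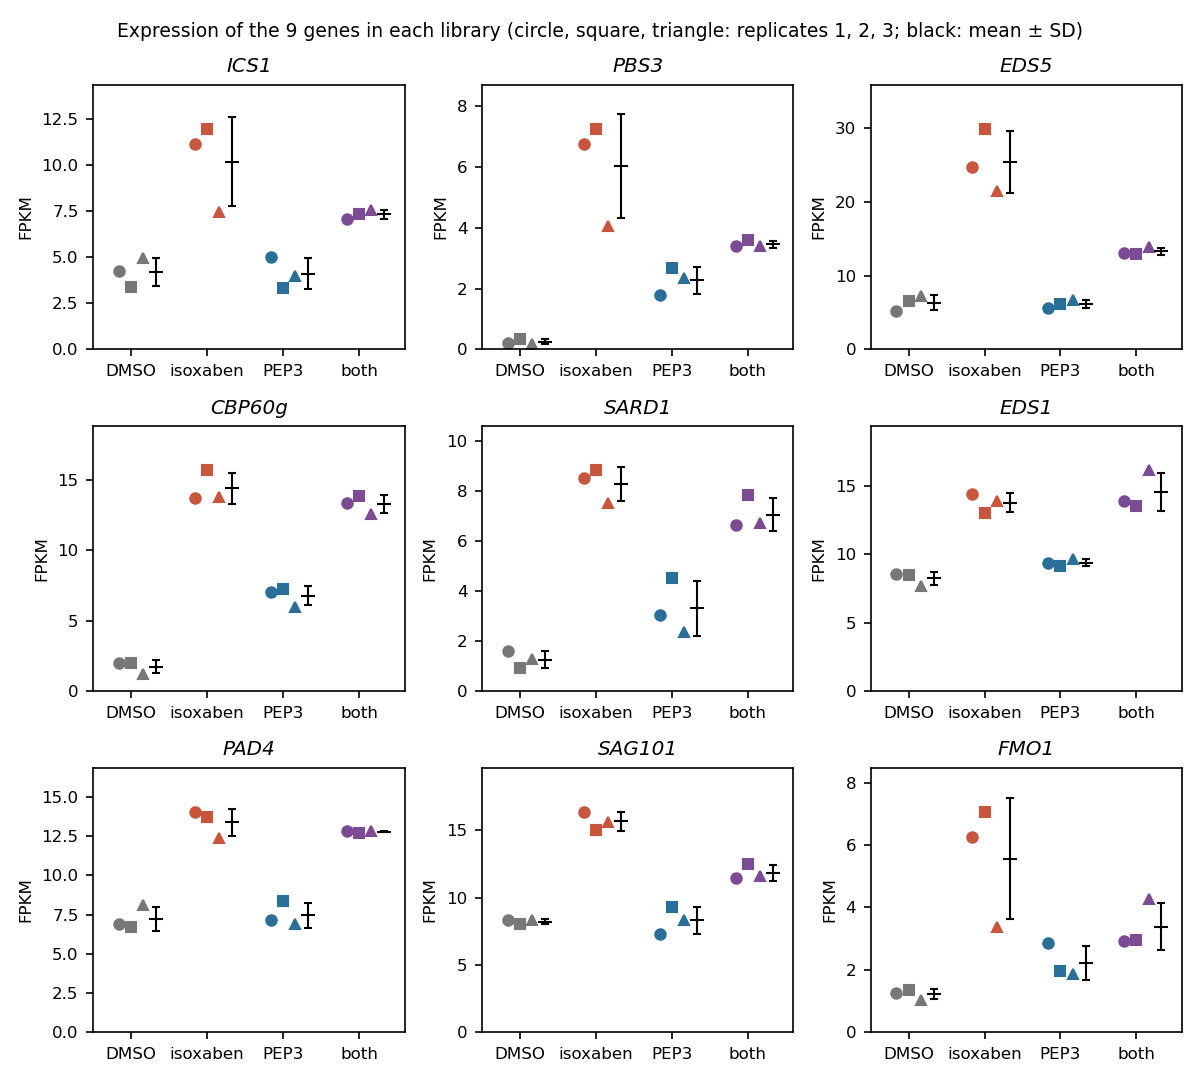
FPKM of each of the 9 genes in every library (vertical axes, FPKM, each from 0, with its own scale), by treatment; circles, squares and triangles are replicates 1, 2 and 3, and black marks the group mean ± SD. The 3 isoxaben libraries lie above the 3 DMSO libraries in every panel, while the PEP3 libraries overlap the DMSO libraries in the panels of ICS1, EDS5, PAD4 and SAG101.

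ICS1 (AT1G74710, listed as EDS16, chromosome 1, 28070295 to 28074177, plus strand), the enzyme at the entry of the route, stood at 4.23, 3.41 and 4.95 FPKM after DMSO and at 11.1, 12.0 and 7.45 FPKM after isoxaben. It stood at 5.00, 3.34 and 3.99 FPKM after PEP3 and at 7.07, 7.36 and 7.55 FPKM after both. The isoxaben libraries and the libraries with both treatments lay above all DMSO and PEP3 libraries, and PEP3 overlapped DMSO. Replicate 3 of isoxaben was well below the other isoxaben libraries and inside the range of the combined treatment. Means were 4.20 ± 0.774, 10.2 ± 2.40, 4.11 ± 0.837 and 7.33 ± 0.242 FPKM (SD, n = 3) after DMSO, isoxaben, PEP3 and both. The log2 change was 1.09 (SE 0.16, adjusted p = 0.000167) for isoxaben and 0.69 (SE 0.16, adjusted p = 0.00554) for both against DMSO. For PEP3 it was -0.03 (adjusted p = 0.946) with a 95% interval of -0.38 to 0.33. Both treatments against isoxaben gave -0.40 (adjusted p = 0.169), which became -0.59 (adjusted p = 0.0298) without isoxaben replicate 3. Against PEP3 alone, both treatments gave 0.72 (adjusted p = 0.0147), a call that was lost without PEP3 replicate 2 (adjusted p = 0.0672), replicate 2 of both (0.0527) or replicate 3 of both (0.0538).

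EDS5 (AT4G39030, listed as DTX47, chromosome 4, 18185437 to 18189224, plus strand), the isochorismate exporter whose W-boxes are printed above, stood at 5.25, 6.57 and 7.21 FPKM after DMSO and at 24.8, 30.0 and 21.5 FPKM after isoxaben. After PEP3 it was at 5.55, 6.12 and 6.67 FPKM, and after both at 13.1, 12.9 and 13.8 FPKM. Isoxaben libraries were highest, those with both treatments lay between with no overlap on either side, and PEP3 libraries lay within the DMSO range. The mean rose from 6.35 ± 1.00 to 25.4 ± 4.24 FPKM with isoxaben (4.01 times; log2 change 1.84, SE 0.12, adjusted p = 1.05e-07) and reached 13.3 ± 0.481 FPKM with both (2.10 times; log2 change 0.97, adjusted p = 4.67e-05). With PEP3 it was 6.11 ± 0.559 FPKM (log2 change -0.04, adjusted p = 0.883, 95% interval -0.30 to 0.22). The combined treatment lay below isoxaben alone by a log2 difference of -0.87 (SE 0.12, adjusted p = 0.000876), a difference called under every alternative that kept the threshold on p alone. EDS5 overlaps AT4G39040 on the opposite strand by 213 bases, 5.62% of the gene, and the strand setting of the counting is not known here.

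PBS3 (AT5G13320, chromosome 5, 4267456 to 4271064, plus strand), which conjugates isochorismate to glutamate, was low after DMSO, at 0.212, 0.339 and 0.186 FPKM from 9 to 16 fragments. It stood at 6.75, 7.25 and 4.05 FPKM after isoxaben, 1.79, 2.67 and 2.34 FPKM after PEP3, and 3.39, 3.58 and 3.38 FPKM after both. The groups stood in the order isoxaben, both, PEP3, DMSO with no overlap between any of them. Mean FPKM was 0.246 ± 0.0818 after DMSO, 6.02 ± 1.72 after isoxaben, 2.27 ± 0.447 after PEP3 and 3.45 ± 0.111 after both, ratios to DMSO of 24.5, 9.23 and 14.1. The log2 changes on the (FPKM + 1) scale were 2.46 (SE 0.17, adjusted p = 1.44e-07), 1.38 (adjusted p = 0.000138) and 1.84 (adjusted p = 2.86e-06). They were understated at this low level: voom on the recovered fragments gave 4.58, 3.20 and 3.79. Both treatments lay below isoxaben by -0.62 (adjusted p = 0.0399), a call lost in 12 of 24 alternatives, among them without isoxaben replicate 1 (0.141), without isoxaben replicate 2 (0.141) and without replicate 1, 2 or 3 of both (0.101, 0.0896 and 0.106). Against PEP3 alone the value for both was 0.46 (adjusted p = 0.124), called without isoxaben replicate 3 (0.0342).

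Of the transcription factors, CBP60g (AT5G26920, chromosome 5, 9475679 to 9478777, plus strand) was at 1.99, 2.02 and 1.17 FPKM after DMSO and 13.7, 15.7 and 13.8 FPKM after isoxaben. After PEP3 the libraries held 7.06, 7.27 and 5.99 FPKM, and after both 13.4, 13.8 and 12.6 FPKM. PEP3 libraries lay clear of DMSO below and of the other treatments above, and the libraries with both treatments overlapped those with isoxaben. The mean rose from 1.73 ± 0.482 to 14.4 ± 1.12 FPKM with isoxaben, 6.77 ± 0.685 with PEP3 and 13.3 ± 0.634 with both (8.33, 3.92 and 7.68 times). The log2 changes were 2.51 (SE 0.12, adjusted p = 9.28e-09), 1.52 (adjusted p = 4.39e-06) and 2.40 (adjusted p = 1.67e-08), above those of the other 8 genes on the log2(FPKM + 1) scale; in ratios of mean FPKM, PBS3 was above CBP60g in each. Both treatments and isoxaben differed by -0.11 (adjusted p = 0.667, 95% interval -0.38 to 0.16).

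SARD1 (AT1G73805, chromosome 1, 27744790 to 27749248, minus strand) was at 1.61, 0.902 and 1.26 FPKM after DMSO and 8.53, 8.83 and 7.53 FPKM after isoxaben. It was at 3.05, 4.52 and 2.36 FPKM after PEP3 and 6.62, 7.82 and 6.71 FPKM after both. The picture was that of CBP60g at a lower level, with PEP3 between DMSO and the other treatments and with both treatments overlapping isoxaben. Means were 1.26 ± 0.352, 8.30 ± 0.682, 3.31 ± 1.11 and 7.05 ± 0.669 FPKM after DMSO, isoxaben, PEP3 and both, which is 6.60, 2.63 and 5.61 times DMSO. The log2 changes were 2.05 (SE 0.17, adjusted p = 6.24e-07), 0.91 (adjusted p = 0.00263) and 1.84 (adjusted p = 2.37e-06). SARD1 overlaps GIP2 (AT1G73790) on the opposite strand by 640 bases, 14.4% of the gene.

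EDS1 (AT3G48090, chromosome 3, 17755329 to 17758147, minus strand) was at 8.56, 8.48 and 7.71 FPKM after DMSO, 14.4, 13.0 and 13.9 after isoxaben, 9.38, 9.13 and 9.65 after PEP3 and 13.9, 13.6 and 16.2 after both. PAD4 (AT3G52430, chromosome 3, 19431095 to 19434450, plus strand) was at 6.91, 6.71 and 8.10 FPKM after DMSO, 14.1, 13.7 and 12.4 after isoxaben, 7.16, 8.37 and 6.88 after PEP3 and 12.8, 12.7 and 12.8 after both. For both genes the libraries without isoxaben lay below all libraries with it, and isoxaben overlapped the combined treatment. In mean FPKM isoxaben gave 1.67 times DMSO for EDS1 and 1.85 times for PAD4, and the combined treatment gave 1.77 times for each. Isoxaben changed EDS1 by 0.68 (SE 0.08, adjusted p = 2.37e-05) and PAD4 by 0.81 (SE 0.09, adjusted p = 1.36e-05) on the log2 scale. PEP3 alone gave 0.17 (adjusted p = 0.201, 95% interval -0.01 to 0.34) for EDS1 and 0.04 (adjusted p = 0.832, 95% interval -0.16 to 0.24) for PAD4, although every PEP3 library of EDS1 was above every DMSO library. EDS1 shares 81.6% identity over 84.9% of its length with its neighbour EDS1B (AT3G48080), so that some fragments could have been counted for the other copy.

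SAG101 (AT5G14930, chromosome 5, 4828499 to 4830982, plus strand), the other partner of EDS1, was at 8.32, 8.03 and 8.31 FPKM after DMSO and 16.4, 15.0 and 15.6 FPKM after isoxaben. It was at 7.31, 9.33 and 8.35 FPKM after PEP3 and 11.4, 12.5 and 11.6 FPKM after both. Unlike EDS1 and PAD4 in these libraries, SAG101 had a combined-treatment range that lay between DMSO and isoxaben without overlap. The mean was 15.6 ± 0.695 FPKM after isoxaben and 11.8 ± 0.591 FPKM after both, against 8.22 ± 0.164 after DMSO and 8.33 ± 1.01 after PEP3. The log2 change was 0.85 (SE 0.08, adjusted p = 4.45e-06) for isoxaben, 0.48 (adjusted p = 0.000754) for both and 0.01 (adjusted p = 0.955, 95% interval -0.17 to 0.19) for PEP3. Both treatments lay below isoxaben by -0.38 (SE 0.08, adjusted p = 0.0174), a call lost without isoxaben replicate 1 (0.0707), replicate 1 of both (0.0591) or replicate 3 of both (0.0605).

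FMO1 (AT1G19250, chromosome 1, 6650476 to 6653195, minus strand) was at 1.26, 1.36 and 1.04 FPKM after DMSO and 6.26, 7.07 and 3.36 FPKM after isoxaben. It was at 2.86, 1.98 and 1.87 FPKM after PEP3 and 2.94, 2.96 and 4.26 FPKM after both. Every treated library lay above the DMSO libraries, while replicate 3 of isoxaben fell inside the range of the combined treatment. The mean rose from 1.22 ± 0.162 to 5.56 ± 1.95 FPKM with isoxaben (4.56 times; log2 change 1.52, SE 0.21, adjusted p = 7.48e-05) and 3.39 ± 0.755 FPKM with both (2.77 times; log2 change 0.97, adjusted p = 0.00277). PEP3 gave 2.23 ± 0.546 FPKM (log2 change 0.53, adjusted p = 0.112), called without isoxaben replicate 3 (0.0305) and with only the compared groups in the fit (0.0473). Both treatments gave -0.55 against isoxaben (adjusted p = 0.136), which was called without isoxaben replicate 3 (-0.82, adjusted p = 0.0112). The FMO2 sequence matches 68.0% of FMO1 at 78.2% identity and was listed at 0 in all libraries.

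**Figure D3:**
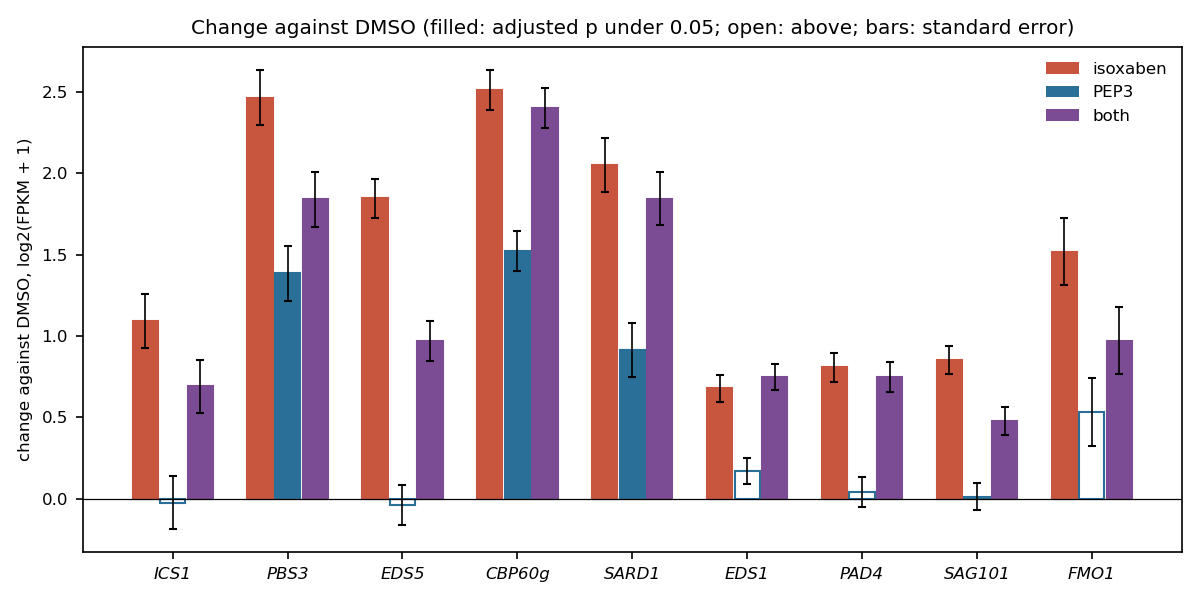
Change of each of the 9 genes against DMSO (vertical axis, log2(FPKM + 1) units) for isoxaben, PEP3 and both; bars are estimates, whiskers standard errors, filled bars an adjusted p under 0.05. All 9 isoxaben bars and all 9 bars of the combined treatment are filled, and 3 PEP3 bars are, those of PBS3, CBP60g and SARD1.

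Across the 9 genes the median log2 change was 1.52 for isoxaben, 0.17 for PEP3 and 0.97 for both against DMSO, where the median of all genes tested lay within 0.01 of 0. These comparisons share the DMSO libraries. Every isoxaben library lay above every DMSO library for 9 of 9 genes, where 23% of all genes tested did so, and the same held for both treatments against DMSO, where 23.4% did so. PEP3 libraries lay above DMSO for 5 of 9 (16.8% of all genes), the exceptions being ICS1, EDS5, PAD4 and SAG101. Set directly against each other, isoxaben was above PEP3 for 9 of 9 genes in the test (22.1% of all genes called, 12.3% higher), with log2 differences from 0.51 for EDS1 to 1.88 for EDS5. Adding isoxaben to PEP3 raised 7 of 9 (8.26% of all genes called, 6.02% higher), all but PBS3 and FMO1. Adding PEP3 to isoxaben raised none and lowered 3 of 9, with no overlap of libraries for these 3 genes (13% of all genes were lower without overlap). Isoxaben replicate 3 was the lowest isoxaben library for 6 of the 9 genes, as it was for 59.6% of the 3503 genes called higher after isoxaben. Without that library 5 genes were called lower after both treatments than after isoxaben, ICS1 and FMO1 besides the 3 above, and without isoxaben replicate 1, or replicate 1 or 3 of both, 1 gene was called, EDS5.

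If the treatments acted additively on the log2 scale, the change after both would equal the sum of the single changes. The change after both was smaller than the sum for all 9 genes, and the difference was called for 5 of them. It was tested as the interaction, (both - isoxaben) - (PEP3 - DMSO), for which 6.24% of all genes were called, 4.3% being called with a value below 0. The share of all genes with a value below 0, called or not, was not counted, and the median of all genes tested was -0.0093. The interaction was -2.01 (SE 0.24, adjusted p = 0.000575) for PBS3, -1.63 (SE 0.17, adjusted p = 0.000325) for CBP60g, -1.12 (SE 0.23, adjusted p = 0.0138) for SARD1, -1.08 (SE 0.29, adjusted p = 0.0458) for FMO1 and -0.83 (SE 0.17, adjusted p = 0.0131) for EDS5. For CBP60g the single changes summed to 4.03 and both treatments gave 2.40, whereas for EDS5 the sum was 1.80 and both gave 0.97. The 2 cases came about in unlike ways: PEP3 alone raised CBP60g, and the combined level overlapped that of isoxaben, while for EDS5 the PEP3 libraries lay within the DMSO range and the combined level was below that of isoxaben. The values for EDS1 (-0.10, adjusted p = 0.696, 95% interval -0.34 to 0.15), PAD4 (-0.10, adjusted p = 0.723), ICS1 (-0.37, adjusted p = 0.396) and SAG101 (-0.39, adjusted p = 0.0768) did not pass the test. The FMO1 call was lost in 14 of 23 alternatives (adjusted p 0.00348 to 0.107), among them without any 1 of 10 libraries, and SAG101 was called without PEP3 replicate 1 (0.0271).

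**Figure D4:**
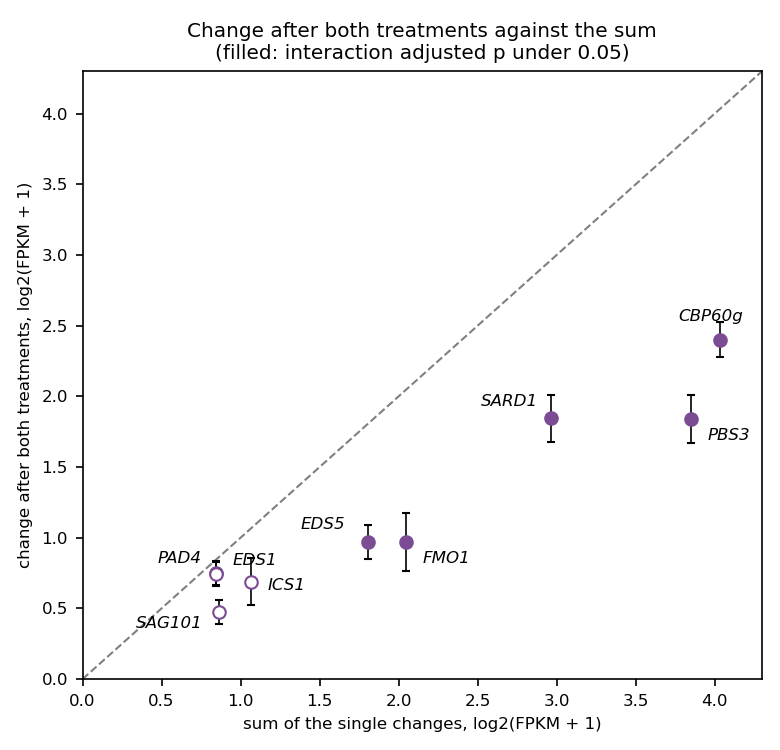
Change after both treatments against DMSO (vertical axis) plotted against the sum of the changes after isoxaben and after PEP3 (horizontal axis), both in log2(FPKM + 1) units, for the 9 genes; whiskers are standard errors of the vertical value and the dashed line is equality. All points lie below the line, PBS3 and CBP60g farthest, and the 5 filled points have an interaction with an adjusted p under 0.05.

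The response to isoxaben was also read in the presence of PEP3, as both treatments minus PEP3, a comparison that shares no library with isoxaben minus DMSO. As a share of the log2 change to isoxaben alone it was 87.6% for PAD4, 85.7% for EDS1, 65.7% for ICS1, 54.7% for EDS5, 54.6% for SAG101, 45.3% for SARD1, 35.0% for CBP60g, 28.9% for FMO1 and 18.5% for PBS3. By these estimates EDS1 and PAD4 kept the most of it and PBS3 the least, but differences in share between genes were not tested. Both treatments against PEP3 had 95% intervals of 0.09 to 0.82 for PBS3, -0.01 to 0.88 for FMO1 and 0.36 to 1.07 for ICS1. The isoxaben change of PBS3, low after DMSO, is also understated on this scale. On the FPKM scale the combined level was set against the sum of the single levels less DMSO, for which 4.99% of all genes were called and 3.19% were below it. The difference from that sum was -11.9 FPKM for EDS5 (13.3 against 25.2, adjusted p = 0.00502), -6.18 FPKM for CBP60g (13.3 against 19.4, adjusted p = 0.0223), -4.59 FPKM for PBS3 (adjusted p = 0.00546) and -3.92 FPKM for SAG101 (adjusted p = 0.0454). SARD1 (-3.30 FPKM, adjusted p = 0.0950) and FMO1 (-3.19 FPKM, adjusted p = 0.0534) passed on the log2 scale but not on this one, and SAG101 the reverse. For EDS5, PBS3 and CBP60g the combined level was below the sum on either scale.

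Among 48 other genes of the pathway, 43 passed the filter. Isoxaben raised 27 and lowered 1 of these, PEP3 raised 17 and lowered none, and both treatments raised 29 and lowered none. Adding PEP3 to isoxaben raised 3 and lowered 6, and the interaction on the log2 scale was below 0 for 14, of which 8 also passed against the linear sum of FPKM, and above 0 for none. Across the 43, the median log2 change was 0.64 for isoxaben, 0.28 for PEP3 and 0.68 for both, below the medians of the 9 genes except for PEP3. The background shares of called genes are those given above.

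Upstream of ICS1, 6 of 7 other regulators rose and 1 (EIL1) fell with isoxaben, none passed the test with PEP3, and 3 fell when PEP3 was added to isoxaben. NAC019, which represses ICS1 in coronatine responses, had a mean of 2.96 FPKM after DMSO, 39.8 after isoxaben, 2.58 after PEP3 and 10.5 after both. Its log2 change was 3.32 (adjusted p = 9.24e-08) for isoxaben and -1.80 (adjusted p = 0.000322) for both against isoxaben, and its relative NAC055 gave 2.17 and -1.14 (adjusted p = 1.92e-06 and 0.00356). WRKY28, an activator of ICS1, rose by 1.39 with isoxaben (adjusted p = 3.23e-06) and 1.03 with both (adjusted p = 5.85e-05). CBP60a, a relative of CBP60g that acts as a repressor of this immunity, changed by 1.22 with isoxaben (adjusted p = 3.35e-06), and CBP60b by 0.42 (adjusted p = 0.000172). The activator WRKY28 and the repressors NAC019, NAC055 and CBP60a were higher after isoxaben. EIL1 of the same list was lower (log2 change -0.34, adjusted p = 0.00689).

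Levels of related copies varied. ICS2, the other isochorismate synthase, averaged 0.385 FPKM over the 12 libraries and was not tested. EDS1B had means of 1.60, 2.09, 2.06 and 2.60 FPKM after DMSO, isoxaben, PEP3 and both, with a log2 change of 0.25 (adjusted p = 0.135) for isoxaben and 0.47 (adjusted p = 0.00908) for both. ALD1, which makes the precursor of pipecolic acid, was under the filter, with 4, 7 and 4 fragments after DMSO, 22, 26 and 21 after isoxaben, 0, 2 and 0 after PEP3 and 4, 3 and 8 after both. Its isoxaben libraries lay above all others. SARD4, the reductase of the same route, was far higher, at 21.1, 35.9, 46.4 and 46.7 FPKM, and rose more with PEP3 (log2 change 1.104, adjusted p = 9.36e-07) than with isoxaben (0.74, adjusted p = 6.73e-06), a difference that passed the test (adjusted p = 0.00367).

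Of 5 tested genes that inactivate salicylic acid, isoxaben raised 3, PEP3 4 and both 4, and none fell in these comparisons. DMR6, a salicylic acid hydroxylase, had means of 5.61, 9.30, 15.6 and 16.7 FPKM after DMSO, isoxaben, PEP3 and both. It was higher after PEP3 than after isoxaben (log2 difference of isoxaben against PEP3 -0.69, adjusted p = 0.00427), the reverse of all 9 genes above. DLO1, the other hydroxylase, rose by 1.37 with PEP3 (adjusted p = 0.00308) and gave 0.69 with isoxaben (adjusted p = 0.0541), from 6 to 11 fragments per library after DMSO. UGT76B1, which glucosylates N-hydroxypipecolic acid and salicylic acid, rose by 1.25 with isoxaben (adjusted p = 1.91e-05) and 0.62 with PEP3 (adjusted p = 0.0123).

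Helper receptors of the EDS1 complexes rose in 4 of 5 cases with isoxaben, 3 of 5 with PEP3 and 4 of 5 with both. These were ADR1-L2 (log2 change 0.95, adjusted p = 7.91e-06 with isoxaben), ADR1-L1 (0.92, adjusted p = 1.19e-06) and ADR1 (0.70, adjusted p = 3.23e-05), all 3 of which also rose with PEP3, and NRG1.2 (0.51, adjusted p = 0.00159), which gave 0.28 with PEP3 (adjusted p = 0.0849). Of 11 tested receptors of salicylic acid and their partners, 4 rose with isoxaben, 4 with PEP3 and 6 with both. NIMIN2, an interactor of NPR1, rose by 1.63 (adjusted p = 0.000119) with isoxaben, NPR3, a receptor that represses the response, by 1.43 (adjusted p = 1.18e-06) and the partner factor TGA3 by 0.34 (adjusted p = 0.00365).

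In the output list, 8 of 10 genes rose with isoxaben, 4 with PEP3 and 8 with both, and 2 fell when PEP3 was added to isoxaben. WRKY46 had means of 1.64, 33.9, 2.74 and 16.1 FPKM after DMSO, isoxaben, PEP3 and both, log2 changes of 3.74 (adjusted p = 4.27e-10), 0.52 (adjusted p = 0.0150) and 2.71 (adjusted p = 8.13e-09). WRKY70, a regulator at the fork of salicylic acid and jasmonate signalling, rose by 2.41 (adjusted p = 3.48e-07), 1.096 (adjusted p = 0.00147) and 1.97 (adjusted p = 3.10e-06). GRX480, a glutaredoxin that binds TGA factors, rose by 2.50 with isoxaben (adjusted p = 4.86e-06) and was lower with both than with isoxaben by -1.10 (adjusted p = 0.0183). Its DMSO level rested on 0 to 4 fragments per library. PR1, the usual marker of salicylic acid responses, stayed low, with group means of 0.273, 1.71, 2.30 and 2.11 FPKM from 2 to 66 fragments, and rose by 1.07, 1.36 and 1.15 (adjusted p = 0.0232, 0.0147 and 0.0168).

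**Figure D5:**
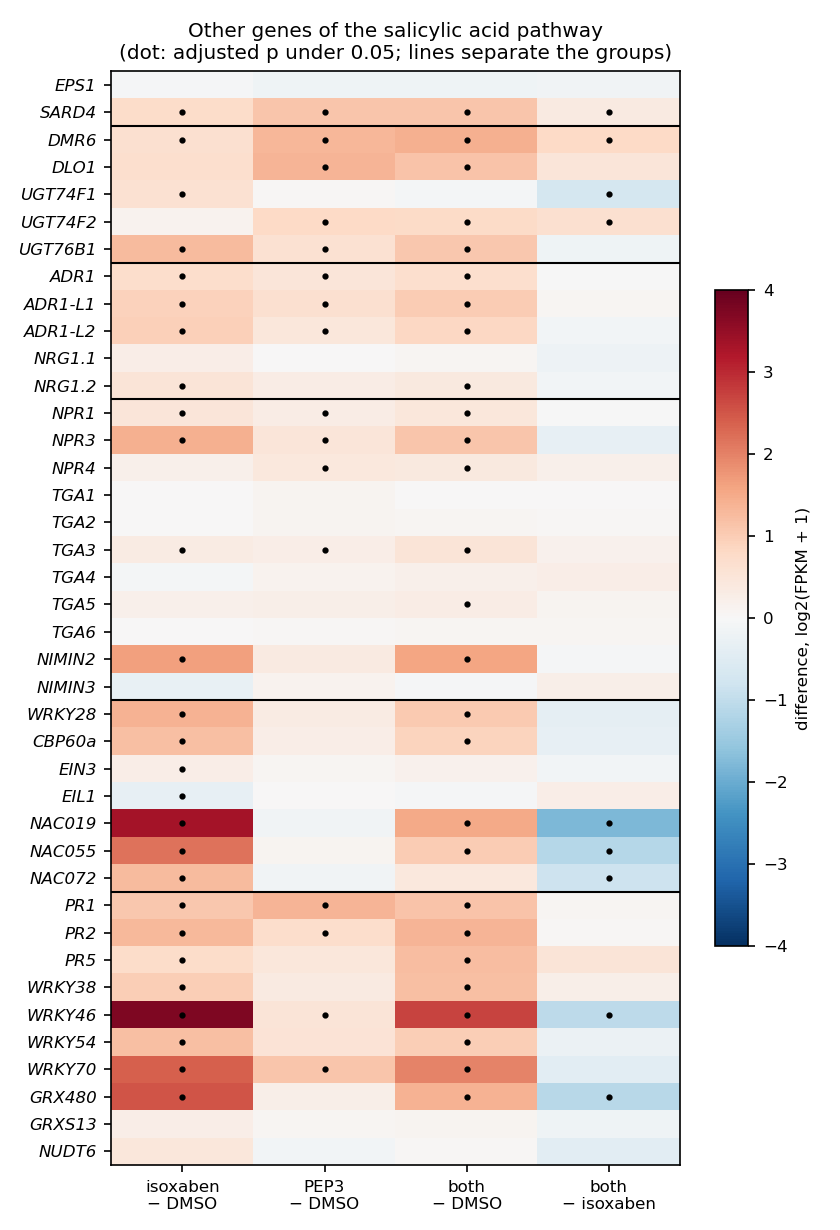
Heat map of the tested genes of 6 groups of the pathway other than the 9 (rows, separated by lines) for 4 comparisons (columns); colour is the difference in log2(FPKM + 1), red higher and blue lower, and dots mark an adjusted p under 0.05. WRKY46 and NAC019 are the reddest for isoxaben, and NAC019, NAC055 and GRX480 are the bluest for both against isoxaben.

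The genes most like each of the 9 over the 12 libraries were sought by Pearson correlation of log2(FPKM + 1) among the genes tested, as a description, since all 12 libraries share the treatment groups. For ICS1 these were MYB44, a stress-related MYB factor (r = 0.976), AT5G17350 (0.975), PI4KG4 (0.974), CBP60F, a relative of CBP60g (0.971), and MSRB8, a methionine sulfoxide reductase (0.969). The closest to EDS5 was TIFY11B, a jasmonate signalling repressor (0.995), to PBS3 the calcium pump ACA12 (0.986), to CBP60g AT4G26910 (0.986), to SARD1 the transporter ABCC3 (0.982) and to FMO1 UXS4 (0.966). Those of EDS1, PAD4 and SAG101 were TEM1 (0.976), XTH22 (0.988) and AT1G66090 (0.983). Between 342 and 805 genes reached an r over 0.9 with a given gene of the 9, so that the pattern is a common one in these libraries.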

How the data were processed

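The authors deposited 1 table of FPKM values for 32833 genes with positions and gene lengths, the latter in other columns, and HISAT2 2.0.5 and TAIR10 are named in the submitters' processing notes. The sources used here do not give the counting program, annotation or strand setting. Libraries were poly(A)-selected and paired-end, per the labels' protocols, and columns were matched to 12 libraries by name. Each FPKM times the length of its gene was a whole number of steps of 1 fragment (100% of values within 0.01), and depth was summed from these. The divisor was 0.982 to 1.03 times the fragments and 0.996 to 1.00 times median-of-ratios factors, so that the deposited values already hold a scaling between libraries. Replicates of 1 group were compared on these fragments, and the chi-square per gene was 4.34 or more, so no library was counted as a repeat of another.

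Changes were tested with limma 3.58.1 in R 4.3.3 (lmFit, eBayes with trend) on log2(FPKM + 1), with 4 group means, all 12 libraries, 8 residual degrees of freedom, no covariates and Benjamini-Hochberg adjustment over the 20248 genes of at least 0.5 FPKM on average. On simulated data with 200 genes changed by 1.5 (log2), the single comparisons recovered 97% to 99% and the interaction 90.5%. Of the genes called there, 4.43% to 6.67% (6.22% for the interaction) had not been changed. Smaller changes were not simulated, so these rates do not give the power for differences below 1.5. The 200 genes were also a smaller share than the 32.5% called for isoxaben against DMSO in the data. Alternatives were pseudocounts, filters, scalings, fits of the compared groups only, fits without trend or with robust variances, a replicate block, stricter thresholds, voom on fragments, the linear sum of FPKM, and leaving out each library.

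The 9 genes and the lists were chosen with earlier results of these data known. The 9 were described whatever their values. Of each other list the called genes were named up to the 3 with the largest change against DMSO, with PR1, ALD1, EDS1B and ICS2 in any case; EIL1 and NRG1.2, outside this rule, were chosen after their values were seen. Motifs and sequences were read from RefSeq TAIR10.1, in which 32548 identifiers matched, with Python 3.11.15, pandas 2.3.3, numpy 2.4.6, scipy 1.17.1 and matplotlib 3.10.9, and copies were found with BLAST 2.17.0.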

Additional observations from a re-analysis of the deposited data

Results flagged for a closer look

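The effect of PEP3 differed with and without isoxaben, by the interaction term of the fit (limma, adjusted p under 0.05), for 5 of the 9 genes and 14 of the 43 other pathway genes tested. All 19 values were below 0 on the log2(FPKM + 1) scale. Of all 20248 genes tested, 6.24% were called for the interaction, and 4.3% were called with a value below 0. The shares called and called below the linear sum of FPKM were 4.99% and 3.19%. Against the linear sum of FPKM, 3 of the 5 and 8 of the 14 passed; SARD1, FMO1, CBP60a, WRKY28, UGT76B1, ADR1, ADR1-L1 and ADR1-L2 did not (adjusted p 0.0534 to 0.0950). Among the 9 they were -2.01 for PBS3, -1.63 for CBP60g, -1.12 for SARD1, -1.08 for FMO1 and -0.83 for EDS5, in log2 units. Among regulators of ICS1 they were -1.66 for NAC019, -1.26 for NAC055, -0.69 for WRKY28 and -0.61 for CBP60a. Output genes gave -1.55 (WRKY46), -1.53 (WRKY70) and -1.35 (GRX480), and the receptor NPR3 gave -0.80. The helper receptors ADR1, ADR1-L1 and ADR1-L2 gave -0.49, -0.55 and -0.57. Enzymes of synthesis and inactivation gave -0.73 (SARD4), -0.75 (UGT74F1) and -0.79 (UGT76B1). Groups of 3 libraries are too small for a test of single libraries that stand apart.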

How the results depend on the processing

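Of 1503 recomputed values for 63 combinations of gene and comparison, 1455 kept their direction and their side of the threshold, 32 lost the call, 6 gained one and 10 changed sign. The losses fell on 4 results: FMO1 in the interaction, PBS3 and SAG101 in both against isoxaben, and ICS1 in both against PEP3. With a log2 change of at least 1 also required, fewer of the 9 genes were called in every comparison. Against DMSO there were 6 calls for isoxaben, 2 for PEP3 and 3 for both. The other counts were 0 for both against isoxaben, 1 for both against PEP3, 4 for isoxaben against PEP3 and 4 for the interaction. At an adjusted p under 0.01 the counts were 9, 3 and 9 for isoxaben, PEP3 and both against DMSO. They were 1 for both against isoxaben, 6 for both against PEP3, 9 for isoxaben against PEP3 and 2 for the interaction. The shares of all genes under these rules were not counted, nor were those in the fits with a library left out or with a replicate block. These counts therefore have no background to be set against. Leaving out each library in turn gave 9 to 9 calls for isoxaben against DMSO, 3 to 4 for PEP3 against DMSO, 9 to 9 for both against DMSO, 1 to 5 for both against isoxaben, 6 to 8 for both against PEP3, 9 to 9 for isoxaben against PEP3 and 4 to 5 for the interaction. The cause of these shifts was not tested.

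The sign changes were all in values that had not passed the test (lowest adjusted p 0.731 after the change). With each library left out in turn, PEP3 against DMSO ranged from -0.149 to 0.0843 for ICS1, -0.152 to 0.0455 for EDS5, -0.0349 to 0.113 for PAD4 and -0.0647 to 0.0920 for SAG101, and SAG101 was -0.0265 with quantile scaling. EDS1 in both against isoxaben ranged from -0.00111 to 0.117. The cause was not tested.

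With the replicate number as a block the counts of calls were 9, 3, 9, 3, 7 and 9 for the comparisons of treatments and 4 for the interaction, where FMO1 was lost (adjusted p 0.0560). Libraries with the same replicate number did not deviate together (r of -0.111 to 0.103 over 18 pairs, 1 over 0.1). Pairs with different numbers gave r of -0.0983 to 0.123 over 36 pairs, 3 over 0.1. No pairing by number was seen, but a correlation over all genes tested could miss one limited to few genes. A pseudocount of 0.1 and voom raised the changes of PBS3 against DMSO by over 1.5 times. For both against isoxaben a pseudocount of 0.1 gave -0.74, where the main fit gave -0.62. Scaling moved the median of all genes by less than 0.1. Depth limits PBS3 after DMSO, PR1, ALD1, GRX480 after DMSO and after PEP3, and DLO1 after DMSO, which rest on few fragments.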
